A study of Homo sapiens with 12 samples.

Results

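The genes described here are 34 members of the nuclear receptor superfamily, listed by Entrez gene number. The thyroid hormone receptors, the retinoid X receptors, HNF4A and the bile acid receptors were left out of the list. All 34 were found among the 23922 genes in the deposited tables, and 30 of them had enough counts to be tested. The cells were derived from H9, a human embryonic stem cell line grown on vitronectin in mTeSR1 medium. They were taken along a protocol towards hepatocytes and are labelled hepatoblasts at day 7 and hepatocytes at day 19. At each day there were 3 groups: a control with 0.1% DMSO, the vehicle, cells given 30 nM T3 (triiodothyronine) and cells given 30 nM T4 (thyroxine). Each of the 6 groups has 2 RNA-seq libraries from total RNA, 12 in all. When hormone was added, how long it stayed on the cells and whether the hormone cells also received DMSO are not given in the labels. All 12 libraries share 1 stem cell line. The labels do not say whether libraries of the same group are separate cultures, and p-values then measure library-to-library spread that may be technical.

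Nuclear receptors are transcription factors that bind DNA through a pair of zinc fingers, and most of them carry a pocket for a small lipophilic ligand such as a steroid, a retinoid, a fatty acid or an oxysterol. Many bind DNA as partners of the retinoid X receptors, as the thyroid hormone receptors do, while orphan receptors have no established physiological ligand or act without one. In liver they set the programmes of fatty acid oxidation, lipid synthesis, detoxification, gluconeogenesis and daily rhythm, and several of them switch on or off as hepatocytes mature.

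The libraries held between 18363549 and 19306181 expected counts. The day 19 cells with DMSO carried hepatocyte RNA, with a summed level of 8 hepatocyte markers in CPM (counts scaled to library size) of 25500 and 28100 in the 2 libraries, against 1930 and 2640 CPM with T3 and 4870 and 5170 CPM with T4. All 8 of these markers fell with either hormone at day 19. Summed markers of mesenchymal or stellate cells went from 6720 and 6480 CPM to 2590 and 3420 CPM with T3 and to 3520 and 3910 CPM with T4. The sum of 4 cholangiocyte markers went from 483 and 496 CPM to 1790 and 1840 CPM with T3 and to 1790 and 1570 CPM with T4. Of these 4 markers, 2 were higher and 1 was lower with either hormone. Markers of intestine went from 2140 and 1980 CPM to 386 and 466 CPM with T3 and to 756 and 979 CPM with T4, and summed blood cell markers stayed at or below 1.05 CPM in every group. Summed hepatoblast markers went from 35500 and 38300 CPM to 2920 and 3160 CPM with T3 and to 4070 and 4360 CPM with T4, with 1 of 7 higher and 4 lower for either hormone. Those of neurons or neuroectoderm went from 89.1 and 86.3 CPM to 291 and 257 CPM with T3 and to 229 and 207 CPM with T4. Of the 4 of these that were tested, 2 were higher and 0 lower with either hormone. At day 7, 6 of 7 pluripotent cell markers rose with either hormone, while 4 of 5 endothelial and 4 of 5 definitive endoderm markers fell. The pluripotent sum went from 1590 and 1620 CPM to 2900 and 2870 CPM with T3 and to 2390 and 2420 CPM with T4. Of 7 hepatoblast markers, 5 fell with T3 and 3 with T4 at day 7, and of 8 hepatocyte markers 3 and 2. None of either set rose. The day 7 hepatoblast sum went from 2220 and 2230 CPM to 2030 and 1970 CPM with T3 and to 2060 and 1990 CPM with T4. These levels move with the hormone results of each day below, and their part in those results was not tested. In bulk RNA, fewer cells of a type and less RNA per cell cannot be told apart.

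NR2F6 (EAR2), an orphan receptor of the COUP-TF group that mostly represses transcription, had the highest level per length of the 34 genes in every group. Its FPKM (a level corrected for transcript length and depth, summed over transcripts) was 127 and 132 in the day 7 DMSO libraries and 187 and 200 in the day 19 DMSO libraries, and it made up between 42.4% and 45.1% of the summed FPKM of the 34 genes in the 6 groups. In day 7 DMSO cells the next genes were NR6A1, a germ cell nuclear factor known for silencing POU5F1 as pluripotency ends, with 28.8 and 28.7 FPKM, and NR1H2 (LXR beta), an oxysterol receptor, with 25.8 and 26.7 FPKM. Their libraries did not overlap in these cells, although the order turned over with T3, where NR1H2 had 29.4 and 26.5 FPKM and NR6A1 24.2 and 24 FPKM. In day 19 DMSO cells the order of the means behind NR2F6 was NR2F2 (COUP-TFII), PPARD, NR1H2, NR1H3 (LXR alpha), ESRRA and PPARA. NR2F2 had 33.5 and 30.1 FPKM and PPARD 28.3 and 27.9 FPKM, and NR1H2 with 25.8 and 28.9 FPKM overlapped both PPARD and NR1H3, which had 26 and 26.7 FPKM. The order of those 3 genes is not resolved.

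Between 18 and 21 of the 34 genes reached 1 FPKM in both libraries of a group. RORB, ESR1, PGR and ESRRB were at or near background everywhere and were not tested. RORB, a relative of the clock receptor RORA, had between 0 and 4 expected counts per library, and PGR, the progesterone receptor, was above 0 in 3 of the 12 libraries with at most 4 counts. ESR1, the estrogen receptor alpha, had between 1 and 10 counts, and ESRRB, a pluripotency factor in mouse cells, between 0 and 5. NR1I2 (PXR), the main receptor for drugs in adult liver, was also close to absent, with 0 to 12 counts per library and at most 0.23 FPKM.

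**Figure D1:**
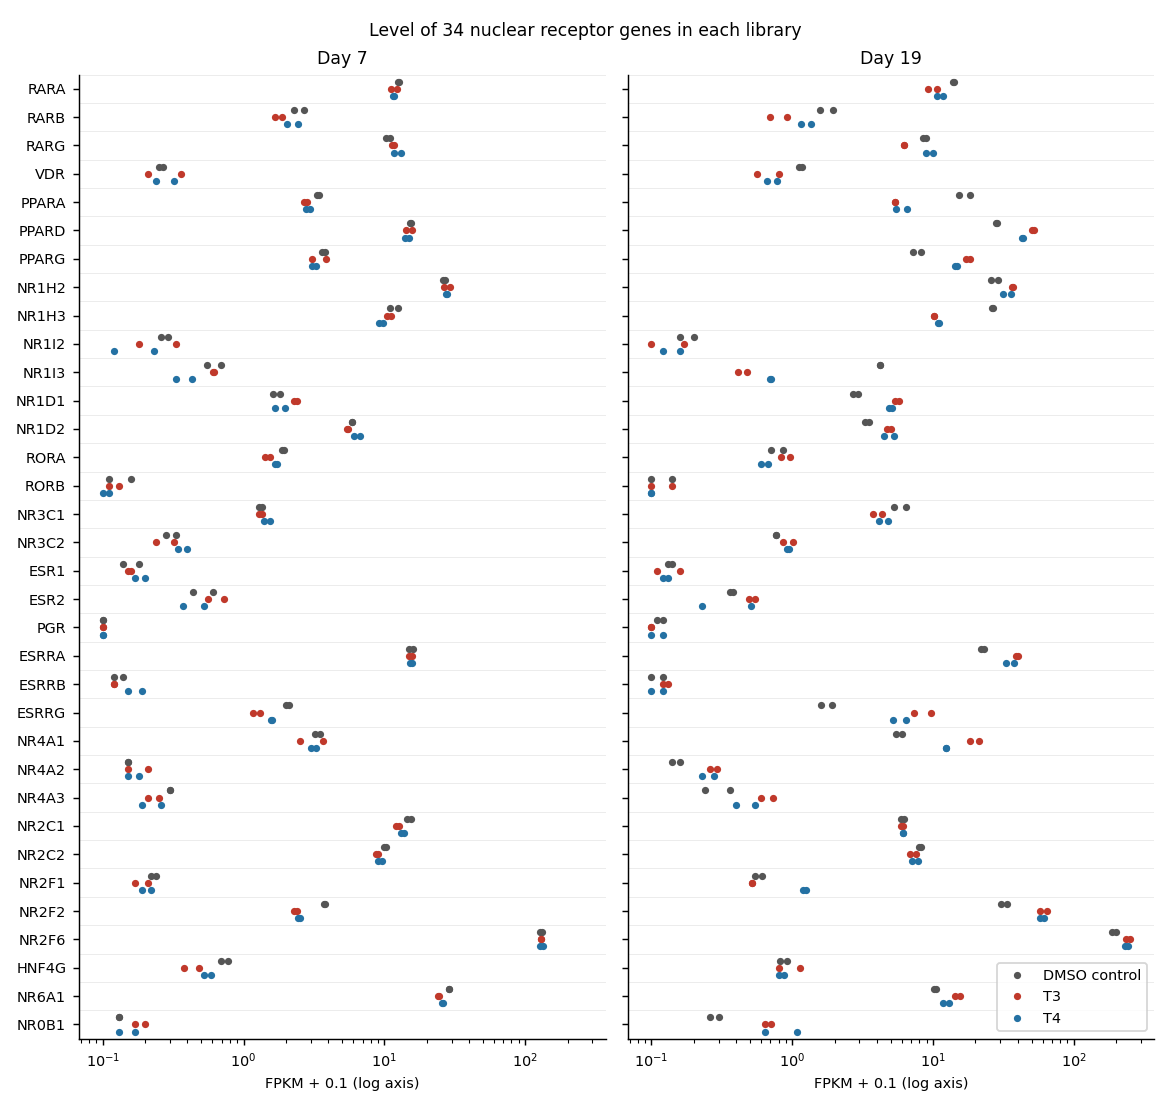
FPKM plus 0.1 on a log axis for each of the 34 genes, with day 7 on the left and day 19 on the right. Each point is 1 library, coloured by treatment, and rows are ordered by receptor role. NR2F6 sits apart at the right edge with 127 to 252 FPKM, and RORB, ESR1, PGR and ESRRB stay near the left edge.

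The comparison of day 19 with day 7 in DMSO cells asked which receptors differ between the cells labelled hepatocytes and those labelled hepatoblasts. Other markers differed too: all 8 hepatocyte, 8 mesenchymal or stellate, 6 intestinal and 4 cholangiocyte markers were higher at day 19. All 7 pluripotent cell markers were lower, and of 7 hepatoblast markers 4 were higher and 3 lower. The part of these shifts in the receptor results was not tested. Expected counts were tested with edgeR's quasi-likelihood test over all 18101 genes tested, and a gene was called at a Benjamini-Hochberg adjusted p of at most 0.05. Of the 30 tested receptors 18 rose and 4 fell, while 72.4% of all genes tested were called in this comparison, 37.6% higher and 34.9% lower. The genes that rose were 5 lipid sensors, 5 orphan receptors, 2 retinoid or vitamin D receptors, 2 steroid receptors and 1 each of the xenobiotic, clock, estrogen-related and immediate early groups. NR2F2, a mesenchymal and endodermal regulator, went from 16.1 and 15.6 CPM to 196 and 174 CPM, which is 3.54 on the log2 scale (SE 0.0902, adjusted p = 1.25e-13). NR1I3 (CAR), the partner of PXR in xenobiotic metabolism, went from 0.674 and 0.481 CPM to 6.3 and 6.01 CPM, and VDR, the vitamin D receptor, from 0.674 and 0.673 CPM to 6.12 and 5.59 CPM. In all 3 genes both day 19 libraries were far above both day 7 libraries.

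PPARA, the receptor that drives fatty acid oxidation in fasted liver, went from 28.8 and 29.6 CPM to 217 and 180 CPM (log2 fold change 2.76, SE 0.0958, adjusted p = 3.08e-12). NR3C1, the glucocorticoid receptor, went from 6.4 and 7.36 CPM to 48.4 and 38.2 CPM, a log2 fold change of 2.65. All 5 lipid sensors were called as higher at day 19, with PPARD at 1.43, PPARG at 1.46, NR1H3 at 1.6 and NR1H2 at 0.47 on the log2 scale beside PPARA. The genes that fell were NR6A1 at -1.09, RORA, an activator of the clock gene BMAL1, at -1.01, NR2C1 (TR2), an orphan repressor, at -0.93, and NR1D2 (REV-ERB beta), a clock repressor, at -0.41 log2. NR0B1 (DAX1), a repressor without a DNA-binding domain, was called as higher, but it had 1 count in each day 7 DMSO library, so no fold is given for it.

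With another measure and test together, limma on log2(FPKM + 0.1), the median of all genes was -0.375 instead of 0, and 15 receptors were called as higher and 7 as lower in place of 18 and 4. RARG turned from 0.11 to -0.3 and NR2C2 from 0.09 to -0.31 on the log2 scale, and NR1H2 (adjusted p = 0.49 by limma) and RARA (adjusted p = 0.114 by limma) were not called. With the size factors of DESeq2 in the edgeR fit, which changes the scaling alone, none of the 22 calls was lost. HNF4G, called as higher with 0.67 log2, was not called without library 2 of day 7 DMSO (adjusted p = 0.0733 by edgeR) or library 1 of day 19 DMSO (adjusted p = 0.076 by edgeR), nor with DESeq2 (adjusted p = 0.0643) or limma (adjusted p = 0.311). Leaving out a library leaves its group with 1, which is then assumed to vary like the other groups, here and wherever a library is left out below.

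The comparisons with hormone asked how T3 and T4 change these receptors at each stage. At day 7 T3 called 5 of 30 receptors, 1 higher and 4 lower, against 16.0% of all genes tested (9.43% higher, 6.54% lower), and T4 called 1 as lower, against 6.42% (3.90% higher, 2.52% lower). At day 19 T3 called 23 of 30, 14 higher and 9 lower, against 52.3% of all genes (25.1% higher, 27.3% lower), and T4 called 21, 12 higher and 9 lower, against 42.8% (21.0% higher, 21.9% lower). Of these, 19 were called with both hormones at day 19, all 19 in the same direction, 4 with T3 only, 2 with T4 only and 5 with neither. The 2 hormone comparisons at a day share their DMSO libraries. Replicate libraries differed less at day 7 than at day 19, while the fit shares its spread over both days. The numbers of calls at the 2 days are therefore not directly comparable. The median log2 fold change of the 30 receptors was 0.26 with T3 and 0.14 with T4 at day 19, beside -0.03 and 0 over all genes. With limma on log2(FPKM + 0.1) the T4 calls at day 19 split into 14 higher and 5 lower, and the median of all genes moved to 0.123.

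**Figure D2:**
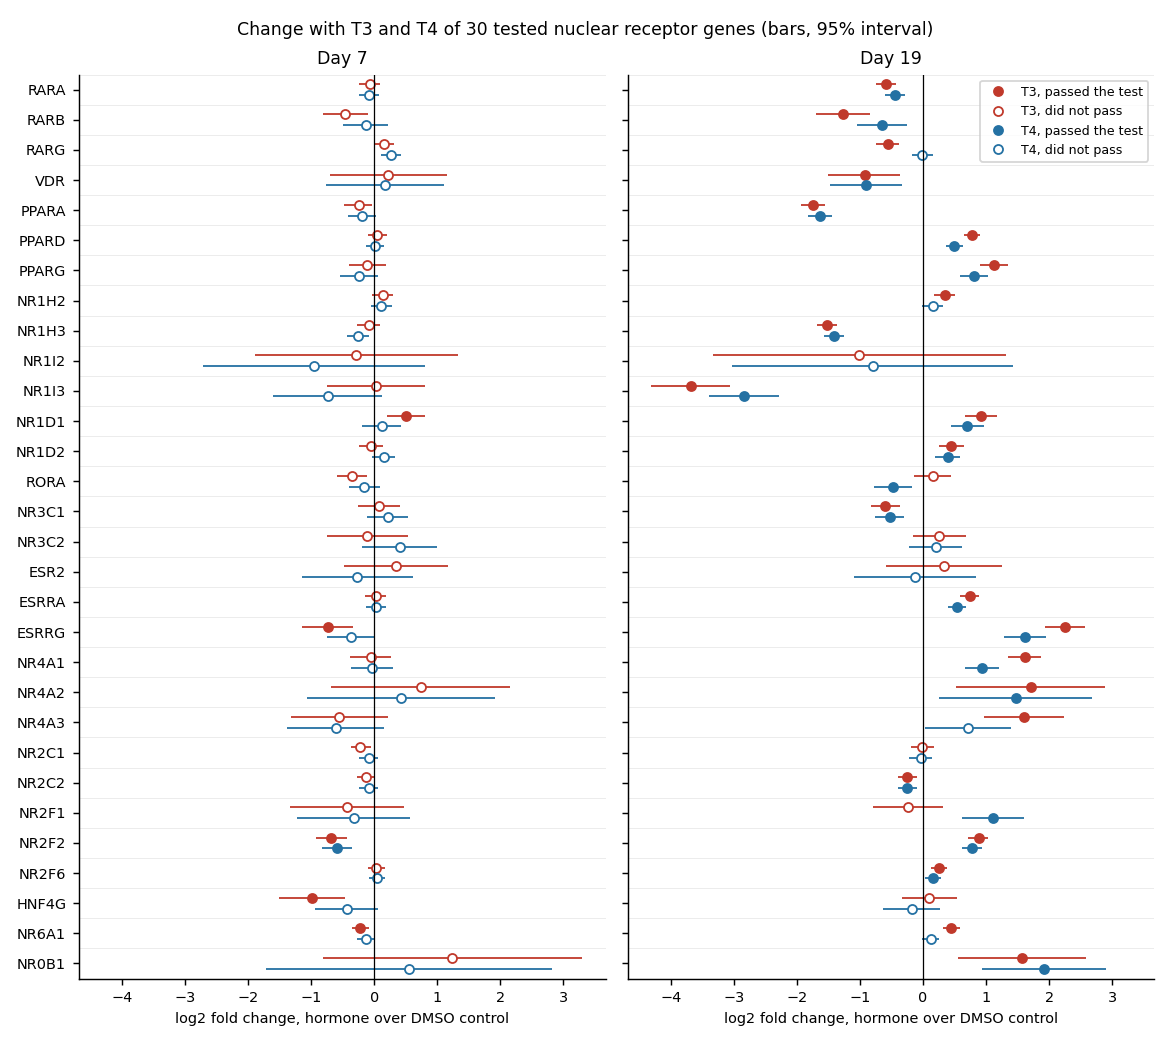
Log2 fold change over the DMSO control of the 30 tested receptors, at day 7 on the left and day 19 on the right. Points are edgeR estimates, red for T3 and blue for T4, filled where the test was passed, and bars are 95% intervals. At day 7 only 5 T3 points and 1 T4 point are filled, while at day 19 they run from -3.69 for NR1I3 to 2.25 for ESRRG.

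The retinoic acid receptors bind the vitamin A derivative retinoic acid and pattern the early gut and liver. All 3 of them and VDR fell with T3 at day 19, and none of the 4 was called at day 7 in the fit of all libraries. With the day 7 libraries alone, edgeR called RARB as lower with T3 (-0.47 log2, adjusted p = 0.0273). It also called RARG as higher with T4 there (0.26 log2, adjusted p = 0.0126). RARB had 6.66 and 5.59 CPM in the day 19 DMSO libraries, 2.22 and 2.85 CPM with T3 and 3.65 and 4.15 CPM with T4. The 3 groups did not overlap, and RARB was lower by -1.27 (SE 0.199, adjusted p = 7.8e-05) with T3 and by -0.65 (SE 0.185, adjusted p = 0.0106) with T4 on the log2 scale. The T4 call was lost without T4 library 1 (adjusted p = 0.0786) or DMSO library 1 (adjusted p = 0.0918), with DESeq2 (adjusted p = 0.0557) and with limma on log2(FPKM + 0.1) (adjusted p = 0.0569). RARA had 56.5 and 55.4 CPM with DMSO, 35 and 39.4 CPM with T3 and 42.9 and 38.8 CPM with T4, and fell with both hormones, by 0.59 and 0.45 on the log2 scale. RARG had 30.1 and 28.4 CPM with DMSO, 20 and 19.7 CPM with T3 and 30.5 and 27.4 CPM with T4. Its T3 libraries stood below the rest (log2 fold change -0.56, SE 0.0831, adjusted p = 4.66e-05), whereas its T4 libraries overlapped the controls (-0.01, adjusted p = 0.913).

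RARB is the retinoic acid receptor whose own promoter is the textbook case of a retinoic acid response element, so the bases before its start are shown here. They come from RefSeq (GRCh38.p14, chr3:25428013-25428262, plus strand), and capitals mark the match to the letters GTTCA, 6 bases of any kind and GTTCA again, searched on both strands.
RARB: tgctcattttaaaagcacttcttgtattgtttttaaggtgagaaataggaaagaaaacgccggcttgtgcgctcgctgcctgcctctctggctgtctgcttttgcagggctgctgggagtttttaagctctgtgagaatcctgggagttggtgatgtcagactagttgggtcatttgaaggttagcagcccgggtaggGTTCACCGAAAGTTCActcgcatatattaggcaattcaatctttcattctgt
The match begins 52 bases before the start. Of 35116 promoters of the same length in the table, 17 (0.0484%) hold such a match, and RARB was the only one among the 30 listed receptors with an entry. Of the 9 RARB transcripts in the files, 7 start next to this window, between positions 25428263 and 25428311, and they held between 80.6% and 100% of the gene's expected counts in the 12 libraries, as RSEM assigned them. A match is a description of the letters and not evidence of binding.

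VDR, which responds to calcitriol, had 6.12 and 5.59 CPM with DMSO at day 19, 2.51 and 3.61 CPM with T3 and 3.48 and 2.79 CPM with T4. Both hormone groups lay below the controls and overlapped each other. The fall was 0.93 with T3 (adjusted p = 0.00916) and 0.9 with T4 (adjusted p = 0.0135) on the log2 scale. Without T3 library 1 the adjusted p was 0.0774, and for T4 it was 0.0961 without T4 library 2 and 0.0675 without DMSO library 1, 0.0588 with DESeq2 and 0.081 with limma on log2(FPKM + 0.1). At day 7 VDR had between 9 and 23 expected counts per library and was not called.

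Genes known to respond to retinoic acid did not move as a block at day 19. Of 13 tested, 4 rose and 5 fell with T3 (median log2 fold change -0.21), and 5 rose and 5 fell with T4 (median -0.09), and over all genes the medians were -0.03 and 0. STRA6, the cellular retinol importer, had 46.5 and 39 CPM with DMSO, 127 and 107 CPM with T3 and 116 and 122 CPM with T4, and it rose with both. CRABP2, which carries retinoic acid to the nucleus, had 211 and 236 CPM with DMSO, 103 and 116 CPM with T3 and 206 and 197 CPM with T4. It fell by 1.03 on the log2 scale with T3 and was not called with T4 (-0.15, adjusted p = 0.0817). CDX1, a homeobox gene of the posterior gut, rose by 1.43 and 1.26, and TGM2, a transglutaminase, fell by 0.35 and 0.24 on the log2 scale. Of 7 vitamin D target genes tested, 2 rose and 3 fell with T3 and 1 rose and 3 fell with T4, and ATP2B1, a calcium pump, had 152 and 129 CPM with DMSO and 104 and 93.8 CPM with T3, a fall of 0.5 on the log2 scale. CYP24A1, the vitamin D hydroxylase that VDR is best known for inducing, went the other way to VDR, from 0.666 and 0.789 CPM with DMSO to 3.71 and 4.89 CPM with T3 and 2.17 and 3.41 CPM with T4 (log2 fold changes 2.55 and 1.93, adjusted p = 5.09e-05 and 0.00109). ORM1, an acute phase protein of hepatocytes, fell by 3.31 and 3.11 and SLC30A10, a manganese exporter, by 1.23 and 0.46 on the log2 scale.

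The peroxisome proliferator-activated receptors bind fatty acids and their derivatives. At day 19 PPARA fell while PPARD, a ubiquitous regulator of fatty acid use, and PPARG, the adipocyte regulator, rose. PPARA had 217 and 180 CPM with DMSO, 60.2 and 58.2 CPM with T3 and 58.4 and 69.7 CPM with T4. Both hormone groups were below the controls, with log2 fold changes of -1.75 (SE 0.0906, adjusted p = 7.64e-10) and -1.63 (SE 0.0898, adjusted p = 3.27e-09). PPARG had 15.3 and 17.4 CPM with DMSO, 37.1 and 33.7 CPM with T3 and 29.2 and 27.9 CPM with T4, and PPARD 121 and 117 CPM, 211 and 198 CPM, and 166 and 169 CPM. The 3 groups did not overlap in either gene. The rise of PPARG was 1.12 with T3 and 0.8 with T4 and that of PPARD 0.78 and 0.49 on the log2 scale.

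Per length, PPARA made up 34.1% and 29.7% of the summed PPAR FPKM in the day 19 DMSO libraries, 7.04% and 7.3% with T3 and 8.54% and 10.1% with T4. At day 7 its share was between 12.6% and 15% in all 6 libraries, and none of the 3 genes was called with hormone in the fit of all libraries. With the day 7 libraries alone, edgeR called PPARA as lower with T3 (-0.27 log2, adjusted p = 0.0055) and T4 (-0.2 log2, adjusted p = 0.043). The PPARA level at day 19 with hormone remained above the 28.8 and 29.6 CPM of day 7 DMSO cells.

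Genes known as PPAR targets went both ways at day 19. Of 15 tested, 5 rose and 8 fell with T3 (median log2 fold change -0.44) and 4 rose and 7 fell with T4 (median -0.3). EHHADH, an enzyme of peroxisomal fatty acid oxidation, had 38.5 and 34.9 CPM with DMSO, 9.82 and 10.6 CPM with T3 and 16.6 and 19.4 CPM with T4, a fall of 1.84 and 1.03 on the log2 scale. CREB3L3, a hepatic regulator of fasting metabolism, fell by 1.47 and 0.83 on the same scale. ANGPTL4, an inhibitor of lipoprotein lipase, had 41 and 39.3 CPM with DMSO, 107 and 113 CPM with T3 and 86.3 and 89.1 CPM with T4, and PLIN2, a coat protein of lipid droplets, 804 and 841 CPM, 1440 and 1430 CPM, and 1160 and 1230 CPM. Both rose with both hormones.

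The liver X receptors sense oxysterols and control cholesterol efflux and fatty acid synthesis. NR1H3 (LXR alpha), the form abundant in liver, had 56.7 and 59 CPM in day 19 DMSO cells, 20.4 and 19.9 CPM with T3 and 22.1 and 21.1 CPM with T4. All 4 hormone libraries were below both controls and near the day 7 libraries, which had 15.2 to 20.1 CPM. The log2 fold change was -1.52 with T3 (SE 0.0768, adjusted p = 5.79e-10) and -1.42 with T4 (SE 0.0758, adjusted p = 2.35e-09). NR1H2, the form found in most tissues, had 63.2 and 70.8 CPM with DMSO, 85.9 and 83.7 CPM with T3 and 79.8 and 69.5 CPM with T4. It rose by 0.34 with T3 (adjusted p = 0.00165) and was not called with T4 (0.16, adjusted p = 0.12). Per length, NR1H3 went from 50.2% and 48% of the summed FPKM of the pair with DMSO to 21.5% and 21.7% with T3 and 23.6% and 25.7% with T4.

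Of 12 LXR target genes tested at day 19, 3 rose and 7 fell with T3 (median log2 fold change -0.5) and 2 rose and 8 fell with T4 (median -0.65). ABCA1, the cholesterol exporter, had 148 and 117 CPM with DMSO, 48.4 and 49.2 CPM with T3 and 41.5 and 49.1 CPM with T4, and SCD, the stearoyl-CoA desaturase, 1130 and 1060 CPM, 735 and 687 CPM, and 418 and 469 CPM. APOE, the lipoprotein component, fell by 1.27 and 0.87 and LPCAT3, a phospholipid remodelling enzyme, by 1.12 and 0.72 on the log2 scale. All 8 hepatocyte markers fell in the same libraries, and whether the falls of these targets go with them was not tested. NR1H3 overlaps ACP2 on the opposite strand by 607 bases in GENCODE 29, and whether counting used strand is not given. ACP2 fell by 0.82 with T3 and 0.42 with T4 on the log2 scale.

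NR1I3 showed the largest fall among the 30 receptors at day 19. It had 6.3 and 6.01 CPM with DMSO, 0.359 and 0.582 CPM with T3 and 0.856 and 0.853 CPM with T4, the T3 values resting on 6 and 10 expected counts. Both hormone groups were below the controls and near the 0.674 and 0.481 CPM of day 7 DMSO cells. The log2 fold change was -3.69 with T3 (SE 0.291, adjusted p = 6.61e-08) and -2.84 with T4 (SE 0.261, adjusted p = 6.34e-07). TOMM40L, which overlaps NR1I3 on the opposite strand by 1079 bases, was not called (-0.02 and -0.02 log2). NR1I2 was not called in any comparison, with intervals for T3 at day 19 from -3.33 to 1.32 on the log2 scale, so a fall of several fold could not be seen at this depth.

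Drug metabolism genes known to respond to CAR and PXR did not follow NR1I3. Of 12 tested, 5 rose and 5 fell with T3 (median log2 fold change 0.07) and 2 rose and 3 fell with T4 (median -0.13). ABCC2, a canalicular exporter of conjugates, had 39.4 and 37.2 CPM with DMSO, 8.68 and 9.02 CPM with T3 and 11.7 and 12.7 CPM with T4 and fell with both. GSTA2, a glutathione transferase, had 1520 and 1630 CPM, 445 and 701 CPM, and 820 and 889 CPM and fell as well. UGT1A1, the bilirubin glucuronosyltransferase, had 14.3 and 13.7 CPM, 68.1 and 88.1 CPM, and 46.9 and 42.1 CPM. It rose with both hormones, though it shares exons with the other UGT1A genes, so its counts are uncertain.

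The clock receptors NR1D1 (REV-ERB alpha) and NR1D2 repress BMAL1, and RORA activates it. NR1D1 had 8.6 and 9.35 CPM with DMSO at day 19, 17.7 and 16.3 CPM with T3 and 14.3 and 14.9 CPM with T4. It rose by 0.92 (SE 0.117, adjusted p = 1.04e-05) and 0.7 (SE 0.118, adjusted p = 0.000221) on the log2 scale, with no overlap between controls and hormone. The gene overlaps THRA, the thyroid hormone receptor alpha, on the opposite strand by 1081 bases, and THRA went the other way, from 38.6 and 29.1 CPM to 19 and 18.6 CPM with T3. NR1D2 had 21.3 and 19.4 CPM with DMSO, 29.3 and 26.3 CPM with T3 and 24.5 and 28.8 CPM with T4, a rise of 0.45 and 0.39 log2. The T4 call was lost without T4 library 2 (adjusted p = 0.06), and NKIRAS1, which overlaps NR1D2 on the opposite strand by 1332 bases, also rose with T3, by 0.46 log2.

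RORA was called with T4 and not with T3 at day 19. It had 9.63 and 7.77 CPM with DMSO, 10.7 and 8.67 CPM with T3 and 5.94 and 6.59 CPM with T4. The T4 libraries lay below the rest (log2 fold change -0.47, SE 0.143, adjusted p = 0.0151), a call that was lost without T4 library 1 (adjusted p = 0.103) or DMSO library 1 (adjusted p = 0.163), with DESeq2 (adjusted p = 0.058), with limma on log2(FPKM + 0.1) (adjusted p = 0.154) and with the day 19 libraries alone (adjusted p = 0.0602). Of 15 other clock genes, 7 rose and 4 fell with T3 (median log2 fold change 0.23) and 5 rose and 4 fell with T4 (median 0.08) at day 19. BHLHE40, a repressor of the CLOCK and BMAL1 dimer, had 86.2 and 82.8 CPM with DMSO, 227 and 196 CPM with T3 and 140 and 132 CPM with T4 and rose. CLOCK itself fell by 0.78 with T3 and 0.49 with T4, and TEF, an output factor of the clock, by 1.43 and 0.94 log2.

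At day 7 NR1D1 was the receptor called as higher with T3, from 3.76 and 4.28 CPM to 5.54 and 5.87 CPM (log2 fold change 0.5, adjusted p = 0.025). The call was lost whichever of the 4 DMSO and T3 libraries was left out, with adjusted p between 0.062 and 0.189, and with DESeq2 (adjusted p = 0.116). The T4 libraries had 3.98 and 4.73 CPM and overlapped the controls. DBP, an output gene of the clock, had 9.44 and 8.61 CPM with DMSO at day 7, 22.2 and 21 CPM with T3 and 17.2 and 14.4 CPM with T4. It rose with both hormones, by 1.26 (adjusted p = 1.23e-06) and 0.81 (adjusted p = 0.000322) log2, and was not called at day 19. Of the 15 clock genes, 2 rose and 1 fell with T3 and 2 rose with T4 at day 7.

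Steroid receptors were few. NR3C1 had 48.4 and 38.2 CPM with DMSO at day 19, 26.6 and 30.7 CPM with T3 and 28.4 and 31.5 CPM with T4. Both hormone groups were below the controls and overlapped each other, with log2 fold changes of -0.6 (SE 0.11, adjusted p = 0.000354) and -0.53 (SE 0.11, adjusted p = 0.00117). NR3C2, the mineralocorticoid receptor, had 4.66 and 4.62 CPM with DMSO, 6.17 and 4.94 CPM with T3 and 5.48 and 5.17 CPM with T4 and was not called (adjusted p = 0.289 and 0.444). ESR2, the estrogen receptor beta, had between 0.571 and 2.25 CPM across the 12 libraries and was not called in any comparison. It overlaps SYNE2 on the opposite strand by 142202 bases.

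Of 13 glucocorticoid target genes tested, 5 rose and 4 fell with T3 (median log2 fold change 0.08) and 4 rose and 5 fell with T4 (median -0.1) at day 19. PCK1, the rate-limiting enzyme of gluconeogenesis, had 520 and 508 CPM with DMSO, 152 and 205 CPM with T3 and 187 and 185 CPM with T4. It fell by 1.53 and 1.46 on the log2 scale. SGK1, a kinase that regulates sodium transport, had 240 and 233 CPM, 518 and 466 CPM, and 367 and 393 CPM and rose with both hormones, as did GADD45B, a stress-response gene, and ERRFI1, an inhibitor of EGFR. Of 9 estrogen target genes, 3 rose and 2 fell with T3 (median 0.28) and 2 rose and 2 fell with T4 (median 0.05). XBP1, a factor of the unfolded protein response, was among those that rose, by 0.84 and 0.46 log2, as did IGFBP4, a binding protein for insulin-like growth factors, by 0.29 and 0.34. PDZK1, a scaffold protein, fell by 1.14 and 0.66 log2, and CXCL12, a chemokine, was not called at day 19 (adjusted p = 0.128 and 0.837).

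The estrogen-related receptors act without a known hormone and drive mitochondrial genes. ESRRG showed the largest rise among the 30 receptors with T3 at day 19. It had 11.4 and 9.53 CPM with DMSO, 57.5 and 42 CPM with T3 and 28.9 and 35.5 CPM with T4. The 3 groups did not overlap, and the log2 fold change was 2.25 with T3 (SE 0.149, adjusted p = 1.05e-08) and 1.62 with T4 (SE 0.154, adjusted p = 8.39e-07). At day 7 it moved the other way with T3, from 9.49 and 8.9 CPM to 5.24 and 5.77 CPM, a fall of 0.74 (adjusted p = 0.015) that was lost whichever of the 4 DMSO and T3 libraries was left out (adjusted p between 0.0573 and 0.115). The day 7 T4 libraries lay between, at 7.22 and 7.02 CPM, and were not called (-0.37, adjusted p = 0.26). With the day 7 libraries alone, edgeR called ESRRG as lower with T4 (-0.37 log2, adjusted p = 0.0295).

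ESRRA, the most abundant of these receptors, had 58.4 and 60.8 CPM with DMSO at day 19, 102 and 97 CPM with T3 and 92.1 and 80.8 CPM with T4. It rose by 0.74 (SE 0.0688, adjusted p = 3.99e-07) and 0.54 (SE 0.0691, adjusted p = 1.85e-05) on the log2 scale and kept its level at day 7, with 30.2 to 32.3 CPM in all 6 libraries. TRMT112, which overlaps ESRRA on the opposite strand by 284 bases, was not called. Per length, ESRRG went from 7.71% and 6.23% of the summed FPKM of the 3 estrogen-related receptors with DMSO to 19.5% and 15.7% with T3. Of 10 genes of energy metabolism known to respond to these receptors, 1 rose and 5 fell with T3 (median log2 fold change -0.21) and 1 rose and 4 fell with T4 (median -0.18). IDH3A, a subunit of isocitrate dehydrogenase, had 75.8 and 77.9 CPM with DMSO, 42.2 and 49.5 CPM with T3 and 51.6 and 48.1 CPM with T4, and MDH1, the cytosolic malate dehydrogenase, fell as well. CKMT2, a mitochondrial creatine kinase, went from 8.66 and 9.17 CPM to 1.44 and 1.69 CPM with T3 and to 3.6 and 3.41 CPM with T4.

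**Figure D3:**
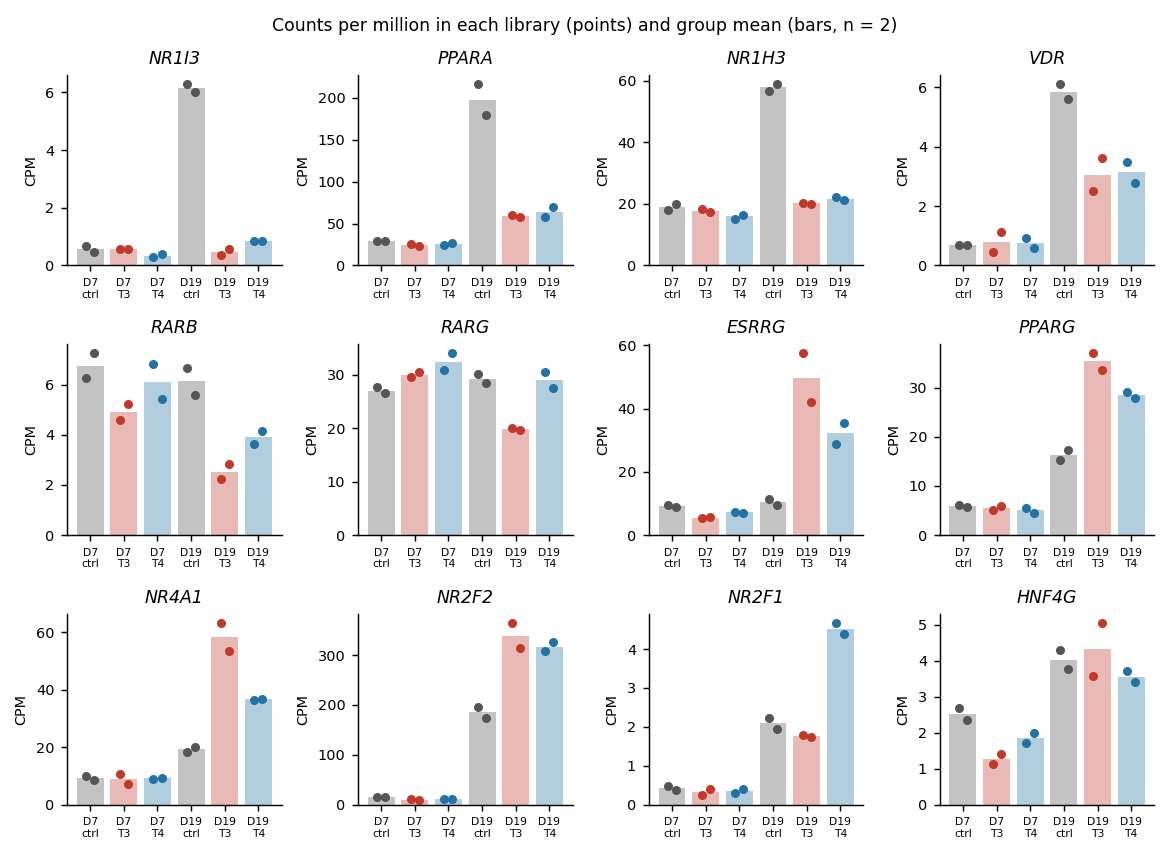
CPM, on axes that start at 0, of 12 receptors in the 6 groups. Points are the 2 libraries and bars their mean. NR1I3, PPARA and NR1H3 are highest in day 19 DMSO cells, while ESRRG, PPARG and NR4A1 are highest with T3 at day 19, and NR2F1 with 4.68 and 4.38 CPM is highest with T4.

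The NR4A receptors are immediate early genes, induced within minutes by growth factors, cAMP and depolarisation, and they act without a ligand. All 3 rose with T3 at day 19 and none was called at day 7. NR4A1 (NUR77) had 18.3 and 20 CPM with DMSO, 63.4 and 53.6 CPM with T3 and 36.5 and 36.9 CPM with T4. The 3 groups did not overlap, and the rise was 1.61 with T3 (SE 0.12, adjusted p = 3.65e-08) and 0.94 with T4 (SE 0.124, adjusted p = 2.31e-05) on the log2 scale. NR4A3 (NOR1) had 1.39 and 0.85 CPM with DMSO, 3.71 and 3.14 CPM with T3 and 1.83 and 1.88 CPM with T4. It rose by 1.6 with T3 (adjusted p = 0.000353) and was not called with T4 (0.72, adjusted p = 0.0857). NR4A2 (NURR1) was sparse, with 3 to 13 counts per library. It rose by 1.71 with T3 (adjusted p = 0.0175) and 1.47 with T4 (adjusted p = 0.0496). The T3 call was lost without T3 library 2 (adjusted p = 0.0716) or DMSO library 2 (adjusted p = 0.0913) and with DESeq2 (adjusted p = 0.133). The T4 call was lost whichever library was left out (adjusted p between 0.0627 and 0.196), with DESeq2 (adjusted p = 0.251) and with the day 19 libraries alone (adjusted p = 0.0677).

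NR4A promoters are known for binding CREB, the cAMP-responsive factor, so the NR4A3 promoter is shown with the letters of its core site in capitals (TGACG, searched on both strands). The bases are from RefSeq (GRCh38.p14, chr9:99821635-99821854, plus strand) and stop where a UTR of GENCODE 29 begins.
NR4A3: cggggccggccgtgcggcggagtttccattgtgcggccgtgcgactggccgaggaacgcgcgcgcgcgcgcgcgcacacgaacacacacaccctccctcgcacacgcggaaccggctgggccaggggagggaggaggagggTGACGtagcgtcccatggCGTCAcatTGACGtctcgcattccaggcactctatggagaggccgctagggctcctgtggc
The shown bases hold 3 matches, and the full 250 bases before the start hold 4. At least 3 matches in the 250 bases before a start were found in 353 of 35116 promoters (1.01%), and at least 1 match in 21.2% of promoters and at 11 of the 30 listed receptors with an entry. The windows at the 2 upstream starts of NR4A1 hold none, which says nothing about the factor. The most downstream start of NR4A1, which held most of its counts with T3 at day 19, and NR4A2 were not searched.

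The NR4A1 transcripts in the files start at 3 annotated positions on chromosome 12 (GENCODE 29), and they did not rise evenly. At the most downstream start, 52051402, RSEM assigned 116 and 100 expected counts in the day 19 DMSO libraries, 693 and 556 with T3 and 376 and 414 with T4. At the middle start, 52037715, the values were 112 and 118 with DMSO, 112 and 122 with T3 and 167 and 181 with T4. At the most upstream start, 52022832, they were 73 and 112, 254 and 244, and 96 and 54. The downstream start thus went from 38.5% and 30.1% of the gene's counts with DMSO to 65.4% and 60.3% with T3 and 58.8% and 63.8% with T4, and the middle start had nearly the same count with DMSO and with T3. In day 7 libraries the middle start held 65.6% to 82.6% of the counts and the upstream start at most 15 counts. The transcripts share most of their exons, so these are estimates of RSEM, with no test.

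**Figure D4:**
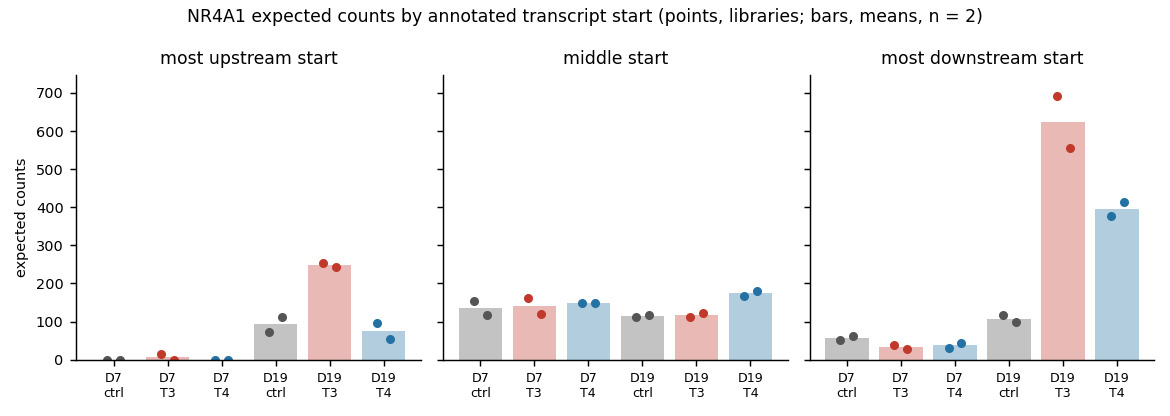
Expected counts of NR4A1 assigned to the transcripts of each of its 3 annotated starts, in the 6 groups. Points are the 2 libraries and bars their mean. The downstream start reaches 693 and 556 counts with T3 at day 19, and the middle start stays between 112 and 181 counts at day 19.

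The COUP-TF group contains NR2F1, NR2F2 and NR2F6. NR2F2 was the receptor called at day 7 with both hormones, and in the opposite direction to day 19. At day 7 it had 16.1 and 15.6 CPM with DMSO, 10.4 and 9.44 CPM with T3 and 10.7 and 10.4 CPM with T4. Both hormone groups were below the controls, with log2 fold changes of -0.68 (SE 0.114, adjusted p = 0.00104) and -0.59 (SE 0.113, adjusted p = 0.00579). The T4 call was lost without T4 library 1, T4 library 2 or DMSO library 1 (adjusted p of 0.0507, 0.0631 and 0.0564). At day 19 it had 196 and 174 CPM with DMSO, 365 and 314 CPM with T3 and 309 and 326 CPM with T4, a rise of 0.88 (adjusted p = 1.25e-07) and 0.78 (adjusted p = 7.92e-07) log2. Of 8 mesenchymal markers, 2 rose and 6 fell with T3 and 2 rose and 5 fell with T4 in these day 19 libraries, and none was called at day 7. The day 7 fall came with the shifts of the pluripotent, hepatoblast, hepatocyte, endothelial and definitive endoderm markers given above.

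NR2F1 (COUP-TFI) separated the 2 hormones. It had 2.24 and 1.94 CPM with DMSO at day 19, 1.8 and 1.75 CPM with T3 and 4.68 and 4.38 CPM with T4. The T4 libraries stood above all others, with a rise of 1.11 (SE 0.229, adjusted p = 0.00116), and T3 was not called (-0.24, adjusted p = 0.46). NR2F6 had 393 and 420 CPM with DMSO, 509 and 461 CPM with T3 and 465 and 443 CPM with T4. Its rise was small, 0.25 with T3 (adjusted p = 0.00257) and 0.16 with T4 (adjusted p = 0.0485), and the T4 call was lost without T4 library 1, T4 library 2 or DMSO library 1 (adjusted p of 0.223, 0.0584 and 0.249) and with the day 19 libraries alone (adjusted p = 0.14). A same-strand model of GENCODE 29 overlaps NR2F6, so its reads may be shared.

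NR6A1 fell at day 7 with T3, from 183 and 181 CPM to 157 and 156 CPM (log2 fold change -0.22, adjusted p = 0.0234), and the call was lost whichever of the 4 libraries was left out (adjusted p between 0.11 and 0.135). At day 19 it had 86.7 and 84.5 CPM with DMSO, 123 and 111 CPM with T3 and 88.9 and 97.8 CPM with T4. It rose by 0.45 with T3 (SE 0.0635, adjusted p = 3.02e-05) and was not called with T4 (0.12, adjusted p = 0.137). NR0B1 had 0.303 and 0.364 CPM with DMSO, 0.958 and 1.05 CPM with T3 and 1.65 and 0.909 CPM with T4, at most 29 counts. It rose by 1.57 with T3 (adjusted p = 0.0122) and 1.92 with T4 (adjusted p = 0.00328), calls that were lost without DMSO library 1 for T3 (adjusted p = 0.0683) and without T4 library 1 for T4 (adjusted p = 0.0518), and for both with DESeq2 (adjusted p of 0.106 and 0.0544).

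HNF4G, a relative of the hepatocyte regulator HNF4A that is prominent in intestine, had 2.7 and 2.36 CPM with DMSO at day 7, 1.13 and 1.42 CPM with T3 and 1.72 and 2 CPM with T4. The T3 fall of 0.99 log2 (adjusted p = 0.0143) was lost without T3 library 1 (adjusted p = 0.131) or DMSO library 1 (adjusted p = 0.105) and with DESeq2 (adjusted p = 0.0551), and the gene was not called at day 19, when the summed intestinal markers were lower with hormone. NR2C2 (TR4), a repressor that binds direct repeats, fell by 0.25 with T3 (adjusted p = 0.0088) and 0.25 with T4 (adjusted p = 0.0113) at day 19. These calls were lost without T3 library 2 (adjusted p = 0.0965) for T3 and without T4 library 1 (adjusted p = 0.113) or DMSO library 1 (adjusted p = 0.0548) for T4, and with limma on log2(FPKM + 0.1) for both (adjusted p of 0.087 and 0.26). MRPS25, which overlaps NR2C2 on the opposite strand by 11141 bases, fell by 1.1 and 0.77 log2. NR2C1 had 19.6 to 22.7 CPM in all 6 day 19 libraries and was not called with hormone at either day in the fit of all libraries. At day 7 it was called as lower with T3 by edgeR on that day's libraries alone (-0.23 log2, adjusted p = 0.00772). Limma on log2(FPKM + 0.1) called it as well (-0.28, adjusted p = 0.0209).

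T4 was also set against T3 directly. At day 7 none of the 30 receptors was called by edgeR, against 0.365% of all genes tested (0.0387% higher, 0.326% lower), 2 had an unadjusted p under 0.05, and DESeq2 and limma also called none. At day 19 9 receptors were called, 2 higher and 7 lower with T4, against 15.7% of all genes (7.42% higher, 8.31% lower). RARG (0.55, SE 0.0827, adjusted p = 0.000499) and NR2F1 (1.35, SE 0.233, adjusted p = 0.00134) were higher with T4. NR4A1 (-0.67, adjusted p = 0.000956), NR6A1 (-0.32, adjusted p = 0.00305) and PPARD (-0.29, adjusted p = 0.00469) were lower with T4 and, like RARG and NR2F1, were called under every alternative run. In NR4A1, NR6A1 and PPARD the T4 libraries lay between the DMSO and T3 libraries.

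ESRRG (-0.63, adjusted p = 0.0046), RORA (-0.62, adjusted p = 0.0078), NR4A3 (-0.89, adjusted p = 0.0409) and PPARG (-0.31, adjusted p = 0.0419) were lower with T4 as well. None of these 4 was called without T3 library 1 (adjusted p of 0.0679, 0.0952, 0.21 and 0.253) or without T4 library 1 (0.0676, 0.0696, 0.155 and 0.107), and without T4 library 2 NR4A3 (0.129) and PPARG (0.171) were not called. With limma on log2(FPKM + 0.1) NR4A3 (0.252), PPARG (0.114) and RORA (0.0655) were not called either. For PPARA (0.11, interval -0.09 to 0.32), NR1H3 (0.1, interval -0.08 to 0.28) and VDR (0.03, interval -0.58 to 0.64) the difference between the hormones was not called. With limma on log2(FPKM + 0.1) the 8 calls split into 4 higher and 4 lower.

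The effect of hormone differed between the days for many of the receptors, by the interaction term of the same fit. For T3 the effect at day 19 minus that at day 7 was called in 18 receptors, 11 positive and 7 negative, against 38.0% of all genes tested (17.1% positive, 20.9% negative), and for T4 in 14, 9 positive and 5 negative, against 27.7% (12.4% positive, 15.3% negative). With limma on log2(FPKM + 0.1) the splits were 14 positive and 5 negative for T3 and 12 and 3 for T4. ESRRG (2.99, adjusted p = 2.74e-07), NR2F2 (1.55, adjusted p = 6.12e-07) and NR6A1 (0.67, adjusted p = 3e-05) were each called with T3 at both days, lower at day 7 and higher at day 19. NR1I3 (-3.71, adjusted p = 3.01e-05), PPARA (-1.49, adjusted p = 1.22e-06) and NR1H3 (-1.43, adjusted p = 2.39e-07) had a lower T3 effect at day 19 than at day 7. NR1I3 had only 6 to 14 expected counts per library at day 7. For NR1D1 the difference between the T3 effects of 0.5 and 0.92 was not called (0.42, adjusted p = 0.0916).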

How the data were processed

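Each of the 12 libraries has 1 deposited table of transcripts with expected counts and FPKM. The authors' values come from HISAT, Bowtie2 and RSEM on hg38, per the submitters' processing notes; versions, annotation and use of strand are not given in the sources used here. Deposited expected counts and deposited FPKM were summed per Entrez gene, and 23801 of 23922 genes matched a RefSeq symbol. Counts were rounded and tested with edgeR 4.0.16 (glmQLFit, glmQLFTest, TMM scaling, filterByExpr) in 1 fit of 6 group means over 18101 genes, with 6 residual degrees of freedom and Benjamini-Hochberg adjustment over all of them. Intervals are 95% and cover the spread between libraries. The test was run on simulated counts drawn with the spread it had estimated, with a small set of genes changed in 1 group. Such counts cannot check the scaling where many genes change. Levels are TMM-scaled CPM; genes are compared with each other only by FPKM. Alternatives were DESeq2 1.42.0, its size factors in edgeR, no filter, limma 3.58.1 on log2(FPKM + 0.1) and log2(FPKM + 1), leaving out the 10 most abundant genes of each library, libraries of 1 day only, a replicate block and each library left out. Named genes were all 34 receptors and from each of 9 target lists at most the 4 with the smallest p in the hormone comparisons. The members, target lists and marker lists were chosen with earlier results of these data known, and so give no independent support. Promoters come from RefSeq (250 bases before each start). No library could be identified as another's copy: replicate pairs differed by more than sampling noise.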

Additional observations from a re-analysis of the deposited data

Results flagged for a closer look

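The results flagged here are receptors whose hormone effect at day 19 differed from that at day 7 by the interaction term of edgeR's quasi-likelihood fit (adjusted p at most 0.05). All values are the day 19 effect minus the day 7 effect on the log2 scale. For NR1I3, NR2F1 and NR4A3 the day 7 effect rests on few counts (6 to 14, 5 to 10 and 10 to 21 per library).

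For T3 the difference was negative, that is a lower effect at day 19, in NR1I3 (-3.71), PPARA (-1.49), NR1H3 (-1.43), RARB (-0.81), RARG (-0.71), NR3C1 (-0.67) and RARA (-0.51). It was positive in ESRRG (2.99), NR4A3 (2.16), NR4A1 (1.67), NR2F2 (1.55), PPARG (1.23), HNF4G (1.09), PPARD (0.73), ESRRA (0.72), NR6A1 (0.67), NR1D2 (0.51) and RORA (0.5). For HNF4G and RORA, neither of which was called with T3 at day 19, the effect at day 7 was negative (-0.99 and -0.35).

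For T4 the difference was negative in NR1I3 (-2.1), PPARA (-1.44), NR1H3 (-1.16), NR3C1 (-0.74) and RARA (-0.37). It was positive in ESRRG (1.99), NR2F1 (1.44), NR2F2 (1.37), PPARG (1.05), NR4A1 (0.97), NR1D1 (0.59), ESRRA (0.51), PPARD (0.48) and NR6A1 (0.26).

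The T3 differences of HNF4G, NR3C1, RARB and RORA and the T4 differences of NR1D1, NR1I3, NR2F1, NR3C1, NR6A1 and RARA were not called when some single library was left out. Adjusted p then reached 0.0741 for HNF4G, 0.0651 for NR3C1, 0.102 for RARB and 0.179 for RORA with T3, and 0.144 for NR1D1, 0.0735 for NR1I3, 0.19 for NR2F1, 0.0512 for NR3C1, 0.151 for NR6A1 and 0.0664 for RARA with T4. The other 14 of 18 T3 differences and 8 of 14 T4 differences were called under each alternative run. Some of the differences that were not called with a library left out were also lost with another test (adjusted p in brackets). With DESeq2 these were HNF4G (0.0637), RARB (0.123) and RORA (0.0867) for T3. For T4 they were NR1D1 (0.133), NR2F1 (0.166) and RARA (0.0688). With limma on log2(FPKM + 0.1) they were RARB (0.0775), RORA (0.0728) and NR3C1 (0.0592) for T3. For T4 limma lost RARA (0.18) and NR3C1 (0.0599). In the same libraries the summed hepatocyte, hepatoblast, mesenchymal and intestinal markers were lower with hormone at day 19. The summed markers of cholangiocytes (2 of 4 higher and 1 lower with either hormone) and of neuroectoderm (2 of 4 tested higher with either hormone) were higher. At day 7 the summed markers of pluripotent cells were higher (1590 and 1620 CPM with DMSO, 2900 and 2870 CPM with T3, 2390 and 2420 CPM with T4). The summed hepatoblast, hepatocyte, endothelial and definitive endoderm markers were lower with either hormone at that day. Their part in these differences was not tested.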

How the results depend on the processing

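Counts of called receptors kept within 1.5 times in most alternatives, and the exceptions lie mainly at day 7. The day 7 libraries alone added NR2C1, NR2C2, PPARA, RARB and RORA to the T3 calls of that day. To the T4 calls they added ESRRG, NR1H3, NR6A1, PPARA and RARG. T3 at day 7 called 5 receptors, 3 with DESeq2, 10 with the day 7 libraries alone and 1 to 2 with a library left out. T4 at day 7 called 1, 2 with limma on either pseudocount, 6 with the day 7 libraries alone and 0 to 1 with a library left out. T4 against T3 at day 19 gave 5 to 11 calls with a library left out, the 5 without T3 library 1, and the T4 difference between days 9 to 14. Among values called by edgeR on all libraries or in the alternative, those that changed sign were NR2C2 (-0.31 and -0.28) and RARG (-0.3 and -0.27) between day 19 and day 7 on log2(FPKM + 0.1) and log2(FPKM + 1), against 0.09 and 0.11 on counts. Over all genes, T3 at day 7 called 2891, 5142 with that day alone and 1325 to 1476 with a library left out. T4 at day 7 called 1162, 3243 and 370 to 406, and T4 against T3 at day 7 66, 397 and 19 to 24. T4 against T3 at day 19 called 2848, 1444 with that day alone and 1522 without T3 library 1.

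Replicate numbers showed little sign of pairing the libraries: same-numbered libraries had correlations of deviations between -0.0257 and 0.00691 at day 7 and between -0.0778 and 0.125 at day 19. Low correlations over all genes cannot exclude cultures shared between same-numbered libraries. With a replicate block edgeR called 6 receptors for T3 and 1 for T4 at day 7, 23 and 19 at day 19, 0 and 7 for T4 against T3, 22 between days, and 18 and 12 for the differences between days.

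Depth limited NR1I2, NR4A2 and NR0B1, with at most 29 counts per library, and the 4 untested receptors. It also limited the day 7 values of NR1I3 (6 to 14 counts per library), NR2F1 (5 to 10) and NR4A3 (10 to 21).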

Other observations

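The list holds 2 pairs of genes that lie within 1 Mb of each other, both made of a REV-ERB clock repressor and a retinoic acid receptor (RefSeq, GRCh38.p14). On chromosome 17 NR1D1 (40092793 to 40100589) and RARA (40309180 to 40357643) are 209 kb apart, and on chromosome 3 NR1D2 (23945286 to 23980617) and RARB (24829321 to 25597932) are 849 kb apart. These gaps run between the edges of the genes. The RARB transcripts that held 80.6% to 100% of its counts start at 25428263 to 25428311, which is more than 1 Mb from NR1D2. With T3 at day 19 the clock gene rose and the retinoic acid receptor fell in both pairs: NR1D1 by 0.92 and RARA by -0.59, and NR1D2 by 0.45 and RARB by -1.27 on the log2 scale, called by edgeR. With T4 the values were 0.7 and -0.45, and 0.39 and -0.65. The pairs were noticed after their values were seen.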
